A study of Mus musculus with 10 samples.

Results

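Tcf7, Lef1, Gata3, Bcl11b, Runx1, Runx3, Tox, Ets1, Ikzf1 and Tcf12 encode 10 transcription factors through which a blood progenitor becomes, and stays, a T cell. They were chosen by symbol as known regulators of the T lineage, and all 10 were found among the 20813 genes of the deposited table. Their transcripts were measured by bulk RNA sequencing of 10 leukemic spleens from C57BL/6 mice. The spleens held a T-cell acute lymphoblastic leukemia (T-ALL), a cancer of immature T cells, which had been transplanted and carried a conditional Sirt1 allele. The leukemia had been injected into a vein of mice irradiated at a sub-lethal dose. The 5 spleens labelled Sirt1-deleted came from mice given 3 mg of tamoxifen in corn oil into the peritoneal cavity, and the 5 control spleens from mice given corn oil alone, as read from the abbreviations in the sample titles. Every leukemia carried the conditional allele, so the groups differed in tamoxifen as well as in the genotype label, and the effects of both cannot be told apart. The labels give no Cre driver, no age and no number of independent leukemias, so the p-values measure the spread between these spleens, which may be separate transplants of one leukemia.

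In the thymus these factors act in a sequence. TCF-1 (from Tcf7) and GATA-3 are switched on by Notch signalling in the earliest progenitors, and BCL11B then closes the alternative fates. E proteins such as HEB (from Tcf12), ETS-1, RUNX proteins and Ikaros (from Ikzf1) act with them on the genes of the T cell receptor, and TOX and RUNX3 act later, when cells choose between the CD4 and CD8 fates. In T-ALL, several of these genes are known targets of mutation or deletion.

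Transcripts of 5 of the 10 factors were lower in the labelled Sirt1-deleted spleens: Ikzf1 fell by 33.4%, Tcf12 fell by 26.2%, Ets1 fell by 25.1%, Tcf7 fell by 25.0% and Tox fell by 21.5%. For each of these genes the highest labelled Sirt1-deleted spleen lay below the lowest control spleen (n = 5 per group). Lef1, Bcl11b and Gata3 had higher means in the labelled Sirt1-deleted spleens and Runx1 and Runx3 lower ones, but none of these differences passed the test. The test was limma on log2(normalized count + 1), fitted over 15276 genes with Benjamini-Hochberg adjustment, and a gene was called at an adjusted p under 0.05. Of the 10 factors 5 were called as lower and 0 as higher, although 2, Lef1 and Bcl11b, were higher at an unadjusted limma p under 0.05. The exact rank-sum test called 5 lower and 0 higher. With 5 spleens per group that test called 3659 genes, the same number as genes whose groups did not overlap. Its calls here and below therefore restate that separation and are not separate support. The 5 called by limma are 50% of the factors, where 36.1% of all genes were called in either direction, 19.4% as lower and 16.8% as higher. The factors had means of 924 or more over all spleens, well above the filter. Among the 11762 genes with a mean of at least 50, more were called: 5125, of them 2996 as lower. At that setting 6 of the 10 factors were called, 5 as lower and 1 as higher. The groups did not overlap for 5 of the 10 factors and for 24.0% of all genes. The median log2 difference was -0.30 over the 10 factors and -0.00014 over all genes tested.

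**Figure D1:**
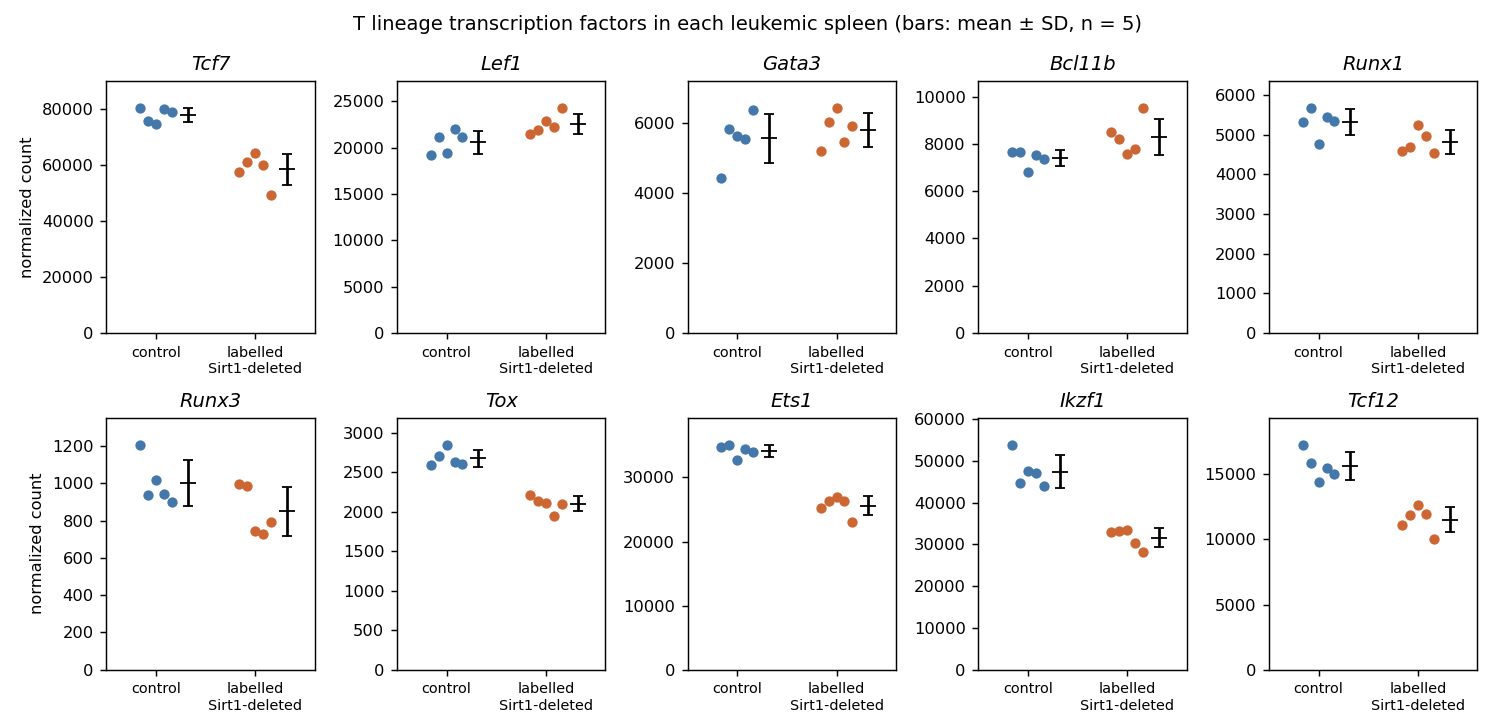
Normalized counts (vertical axes, each from 0) of the 10 T lineage factors in each control (blue) and labelled Sirt1-deleted (orange) spleen, with the mean ± SD of 5 spleens as black bars. For Tcf7, Tox, Ets1, Ikzf1 and Tcf12 every orange point lies below every blue point, and for the other genes the points overlap.

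Sirt1 itself was read first in every spleen. Its normalized counts were 1925, 1715, 1817, 1812 and 2097 in labelled Sirt1-deleted replicates 7, 8, 10, 11 and 12, and 1735, 1803, 1796, 1909 and 1810 in control replicates 2, 3, 4, 5 and 6. The groups overlapped, with a log2 difference of 0.05 (SE 0.06, limma adjusted p = 0.568). Sirt1 transcript therefore did not fall with the label, and a gene-level sum does not show whether part of the transcript was missing. The part of the gene that the allele removes is not given in the sources used here. Values of each factor below follow the same order of replicates.

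The spleens expressed T cell genes throughout, and they differed in transcripts of other blood cells. The deposited values summed to 33.7 to 34.5 M (M, mega) per spleen, and a depth of roughly 31.4 to 38.5 M reads was estimated from the spacing of low values. The 12 T cell markers summed to 189580 to 228382 normalized counts in the labelled Sirt1-deleted spleens and 170674 to 188281 in controls. Most of that difference was in Thy1, with means of 79592 and 53217. Of the 12 markers 3 rose (Thy1, Lat and Cd3d), 4 fell (Cd5, Cd28, Themis and Cd247) and 5 were not called, with a median log2 difference of -0.03. Of 12 neutrophil markers 11 rose, and their sum was 26786 to 91664 against 8361 to 11610. Of 11 macrophage markers 9 rose, with sums of 5745 to 10387 against 2715 to 3004. Much of that rise was in Lyz2, with means of 3609 and 880. B cell markers summed to 491 to 942 against 426 to 741, natural killer cell markers to 12605 to 17576 against 10223 to 15476, nearly all of it Gzma, and stromal markers to 4910 to 5395 against 5667 to 6592. Most of the stromal sum was Pecam1 (means of 3192 and 3252, not called) and Pdgfrb (means of 1459 and 2170, called lower). Erythroid markers summed to 29419 to 145959 against 31343 to 120933. No marker found in the table was at 0 in any spleen. The part of the neutrophil and macrophage transcripts in the differences of the T lineage factors was not tested. In bulk RNA, fewer cells of a type and less RNA per cell cannot be told apart.

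Promoter sequence was looked up for the 10 factors in RefSeq on GRCm38.p6, and 8 had an entry, which left out Tox and Ets1. The window was the 250 bases before the RefSeq start, trimmed to bases outside the annotated exons of the gene. It was searched on both strands for 6 core motifs. These were CTTTGA for the TCF/LEF proteins, TGTGGT for the RUNX proteins, AGATAA for the GATA proteins, CAGCTG for the E proteins (an E-box), CCGGAA for the ETS proteins and TGGGAA for the Ikaros proteins. Of these windows 3 are shown, because Ikzf1 fell most and its window held none of the 6 motifs, Tcf12 encodes an E-box protein and its window held an E-box, and Runx3 held the most matches of the 8 windows. Capitals mark the motif matches, and each sequence is read 5′ to 3′ on the strand of its gene.
Ikzf1: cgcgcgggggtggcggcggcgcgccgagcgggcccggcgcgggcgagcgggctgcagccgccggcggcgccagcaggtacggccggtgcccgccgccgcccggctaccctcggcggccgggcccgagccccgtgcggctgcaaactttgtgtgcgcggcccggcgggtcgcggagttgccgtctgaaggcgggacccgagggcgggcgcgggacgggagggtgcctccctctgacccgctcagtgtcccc
Tcf12: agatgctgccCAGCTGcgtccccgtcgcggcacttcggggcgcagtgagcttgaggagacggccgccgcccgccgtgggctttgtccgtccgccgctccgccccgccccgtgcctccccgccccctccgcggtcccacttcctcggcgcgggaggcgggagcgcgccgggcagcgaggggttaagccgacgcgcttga
Runx3: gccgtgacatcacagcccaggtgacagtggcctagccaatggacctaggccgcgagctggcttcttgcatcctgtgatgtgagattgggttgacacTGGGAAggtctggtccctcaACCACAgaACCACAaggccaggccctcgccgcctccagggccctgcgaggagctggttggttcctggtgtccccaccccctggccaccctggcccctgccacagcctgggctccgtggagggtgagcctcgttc
The Ikzf1 window (chr11:11685675-11685924, plus strand, 82.0% G or C) lies inside the annotated span of the gene and outside its exons. The Tcf12 window (chr9:72111872-72112069, minus strand, 198 bases, 76.8% G or C) lies directly upstream of the annotated gene, with CAGCTG 240 bases before the RefSeq start. The Runx3 window (chr4:135120395-135120644, plus strand, 65.2% G or C) lies upstream of the annotated gene. It held TGTGGT 2 times, read here as ACCACA, at 134 and 126 bases before the RefSeq start, and TGGGAA at 154 bases, with no overlap among the matches. Such matches are common: of 32851 mouse promoters, 14.0% held TGTGGT, 21.6% held TGGGAA and 13.0% held CAGCTG in the full window, and 10.2% held CAGCTG in the shorter window of Tcf12. The other motifs were in 13.8% (CTTTGA) and 9.99% (AGATAA) of full windows, and CCGGAA was in 3952 of the 32851. A match describes letters and no measurement of binding was made here.

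Tcf7 and Lef1 encode the HMG-box partners of beta-catenin in developing T cells, and the differences of their means had opposite signs. Tcf7 (chr11:52252371-52283014, minus strand, GRCm38) had normalized counts of 57388, 61018, 64326, 60020 and 49376 in the labelled Sirt1-deleted spleens and 80367, 75603, 74746, 80153 and 78839 in controls. The groups did not overlap, and replicate 12 was the lowest of all spleens. Means were 58426 ± 5636 and 77942 ± 2611 (SD, n = 5), a log2 difference of -0.42 (SE 0.07, limma adjusted p = 0.000906). Lef1 (chr3:131110471-131224356, plus strand) had 21458, 21893, 22843, 22247 and 24291 normalized counts in the labelled Sirt1-deleted spleens and 19174, 21151, 19458, 22012 and 21210 in controls. The labelled Sirt1-deleted spleen with the most Lef1 was replicate 12, the same library that had the least Tcf7. The log2 difference of Lef1 was 0.13 (SE 0.05, limma adjusted p = 0.0648). It passed under upper-quartile rescaling (0.19, limma adjusted p = 0.0226), under rescaling to T cell markers (limma adjusted p = 0.0228) and without control replicate 5 (0.16, limma adjusted p = 0.0499). These were 2 of the 11 alternative settings and 1 of the 10 single omissions. In the rest Lef1 did not pass, with limma adjusted p up to 0.145.

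Tcf12 encodes HEB, which pairs with the E protein E2A (from Tcf3) at E-box sites and is held off DNA by the Id proteins. Tcf12 (chr9:71842688-72111871, minus strand) had 11085, 11832, 12657, 11964 and 10052 normalized counts in the labelled Sirt1-deleted spleens and 17258, 15848, 14420, 15481 and 15047 in controls. All 5 labelled Sirt1-deleted spleens were below all 5 controls, and the extremes were replicate 12 at the low end and control replicate 2 at the high end. Means were 11518 ± 992 and 15611 ± 1063 (SD, n = 5), a log2 difference of -0.44 (SE 0.07, limma adjusted p = 0.000774). The annotation places 11 other genes inside or across Tcf12, 7 of them on its strand. Tcf7, Lef1 and Gata3 each overlap 1 gene on their strand, and the other factors none. Whether reads of such transcripts were counted with these factors cannot be told from the gene values.

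Ikzf1 encodes Ikaros, a zinc finger factor that restrains proliferation in lymphoid cells and is a known tumor suppressor in lymphoid leukemia. Ikzf1 (chr11:11685003-11772926, plus strand) had 32853, 33081, 33408, 30276 and 28218 normalized counts in the labelled Sirt1-deleted spleens and 53833, 44657, 47453, 47110 and 43973 in controls. The gap between the groups was wide, since the highest labelled Sirt1-deleted spleen, at 33408, was far below the lowest control, at 43973. Means were 31567 ± 2248 and 47405 ± 3897 (SD, n = 5). The log2 difference of -0.59 (SE 0.07, 95% interval -0.73 to -0.44, limma adjusted p = 0.000177) was the largest in size among the 10 factors and 65th by p among all genes tested.

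Ets1 encodes the ETS factor that is needed for thymocyte survival and receptor gene expression. Ets1 (chr9:32636221-32757820, plus strand) had 25232, 26368, 26941, 26355 and 23103 normalized counts in the labelled Sirt1-deleted spleens and 34809, 35093, 32686, 34385 and 33931 in controls. Both groups were tight, and they did not overlap. Means were 25600 ± 1528 and 34181 ± 944 (SD, n = 5), a log2 difference of -0.42 (SE 0.05, limma adjusted p = 0.000229).

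Tox encodes an HMG-box factor that is needed for CD4 lineage T cells and that is also raised in exhausted T cells. Tox (chr4:6686353-6991557, minus strand) had 2210, 2132, 2114, 1948 and 2092 normalized counts in the labelled Sirt1-deleted spleens and 2596, 2704, 2846, 2626 and 2600 in controls. The groups did not overlap, and the lowest spleen was replicate 11, not replicate 12 as for Tcf7, Tcf12, Ikzf1 and Ets1. Means were 2099 ± 95.4 and 2674 ± 105 (SD, n = 5), a log2 difference of -0.35 (SE 0.05, limma adjusted p = 0.000608).

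Gata3 and Bcl11b, the factors of T cell specification and commitment, were not called. Gata3 (chr2:9857078-9890034, minus strand) had 5194, 6043, 6434, 5471 and 5932 normalized counts in the labelled Sirt1-deleted spleens and 4438, 5835, 5624, 5540 and 6389 in controls. The groups overlapped over most of their range. The log2 difference was 0.07 (SE 0.09, 95% interval -0.12 to 0.26, limma adjusted p = 0.570), and without control replicate 2, the lowest control, it was -0.0099. Bcl11b (chr12:107910403-108003602, minus strand) had 8492, 8188, 7571, 7762 and 9513 normalized counts in the labelled Sirt1-deleted spleens and 7656, 7634, 6807, 7531 and 7346 in controls. Only replicate 10 of the labelled Sirt1-deleted spleens lay inside the control range, and replicate 12 was the highest of all. The log2 difference was 0.16 (SE 0.06, 95% interval 0.03 to 0.30, limma adjusted p = 0.0559). It passed as higher without labelled Sirt1-deleted replicate 10 (0.20, limma adjusted p = 0.0234), without replicate 11 (0.19, limma adjusted p = 0.0426) and without both (0.24, limma adjusted p = 0.00716). Replicates 10 and 11 had the lowest Bcl11b values of their group, so leaving them out raises the difference in any case. Bcl11b also passed under upper-quartile rescaling (0.22, limma adjusted p = 0.0289), quantile normalization (limma adjusted p = 0.0229), rescaling to T cell markers (limma adjusted p = 0.0254), sample weights (0.17, limma adjusted p = 0.0218) and a minimum mean of 50 (limma adjusted p = 0.0494). In all, it passed in 2 of the 10 single omissions and 5 of the 11 alternative settings, with limma adjusted p up to 0.130.

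Runx1 and Runx3 encode DNA-binding partners of the shared subunit CBF-beta, with RUNX1 prominent in early thymocytes and RUNX3 in CD8 cells. Runx1 (chr16:92601466-92826149, minus strand) had 4583, 4683, 5250, 4970 and 4545 normalized counts in the labelled Sirt1-deleted spleens and 5323, 5668, 4768, 5450 and 5342 in controls. Control replicate 4 fell among the labelled Sirt1-deleted spleens, and the other controls were above all of them. The log2 difference was -0.14 (SE 0.06, limma adjusted p = 0.0673). It passed as lower without control replicate 4 (-0.18, limma adjusted p = 0.0255), without labelled Sirt1-deleted replicate 10 (-0.18, limma adjusted p = 0.0237), without replicates 10 and 11 (-0.20, limma adjusted p = 0.0123) and with sample weights (-0.17, limma adjusted p = 0.0225). Replicates 10 and 11 had the highest Runx1 values of their group and control replicate 4 the lowest, so these omissions enlarge the difference in any case. In all, Runx1 passed in 2 of the 10 single omissions and 1 of the 11 alternative settings, with limma adjusted p up to 0.312. Runx3 (chr4:135120652-135177990, plus strand) was the least abundant of the factors, with 998, 984, 745, 727 and 791 normalized counts in the labelled Sirt1-deleted spleens and 1207, 936, 1019, 940 and 897 in controls. Replicates 7 and 8 lay inside the control range, and replicates 10, 11 and 12 lay below it. The log2 difference was -0.24 (SE 0.11, 95% interval -0.48 to -0.003, limma adjusted p = 0.103).

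**Figure D2:**
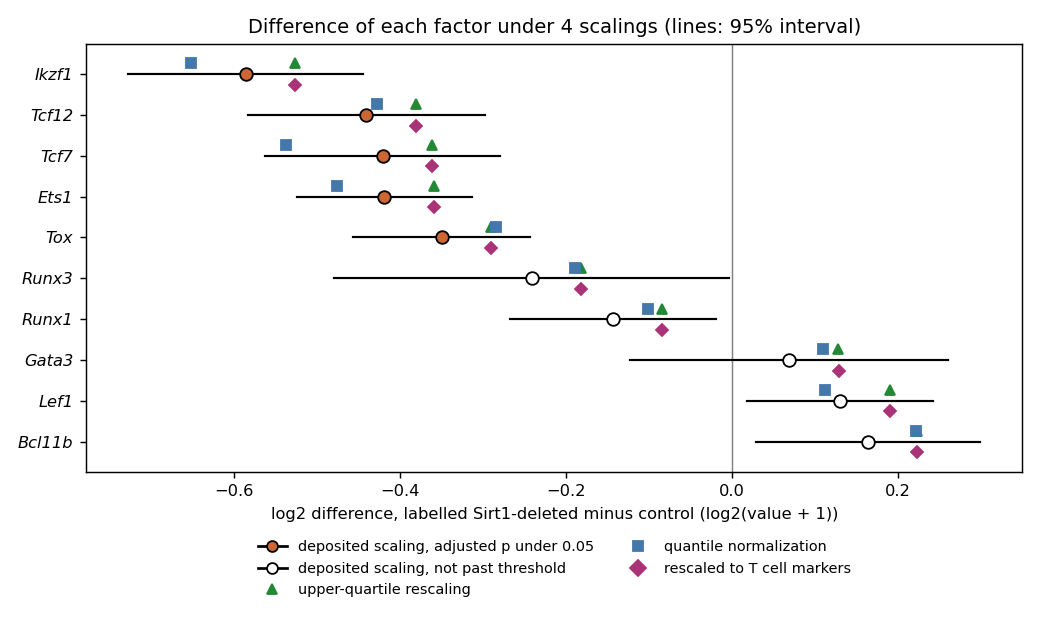
Log2 difference (horizontal axis, labelled Sirt1-deleted minus control, on the log2(value + 1) scale) of each T lineage factor, with circles and 95% intervals for the deposited scaling and other symbols for 3 rescalings. Ikzf1, Tcf12, Tcf7, Ets1 and Tox lie below 0 under all 4 scalings, from -0.65 to -0.28, and Lef1, Bcl11b and Gata3 lie above 0 under all 4.

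The 5 factors that fell stayed past the threshold in every alternative run: 11 other settings on all spleens, the omission of each of the 10 spleens in turn, and the omission of labelled Sirt1-deleted replicates 10 and 11 together. Over the 11 settings Ikzf1 ranged from -0.65 to -0.53, Ets1 from -0.48 to -0.36, Tcf7 from -0.54 to -0.36, Tcf12 from -0.44 to -0.38 and Tox from -0.35 to -0.28 on the log2 scale. The rescalings to the upper quartile and to T cell markers moved the median of all genes to 0.059. The latter used the geometric mean of the 12 T cell markers, of which 3 rose and 4 fell. It moved differences upward, although the plain sums of these markers were higher in the labelled Sirt1-deleted spleens. The share of called genes that were higher was 46.4% with the deposited scaling, 58.2% with upper-quartile rescaling and 62.9% with rescaling to T cell markers.

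The spleens of one group were not evenly displaced, and a few libraries held most of the extremes. In labelled Sirt1-deleted replicate 12, 5 factors were at the lowest level of the group (Tcf7, Runx1, Ets1, Ikzf1 and Tcf12) and Lef1 and Bcl11b at the highest. Replicate 10 was the highest of its group for 6 factors (Tcf7, Gata3, Runx1, Ets1, Ikzf1 and Tcf12) and the lowest for Bcl11b. Among the controls, replicate 2 was the highest for 5 factors (Tcf7, Bcl11b, Runx3, Ikzf1 and Tcf12), and replicate 4 the lowest for 5 (Tcf7, Bcl11b, Runx1, Ets1 and Tcf12). Neutrophil marker sums in labelled Sirt1-deleted replicates 7, 8, 10, 11 and 12 were 55012, 91664, 26786, 36868 and 41492 normalized counts, and their part in these extremes was not tested.

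**Figure D3:**
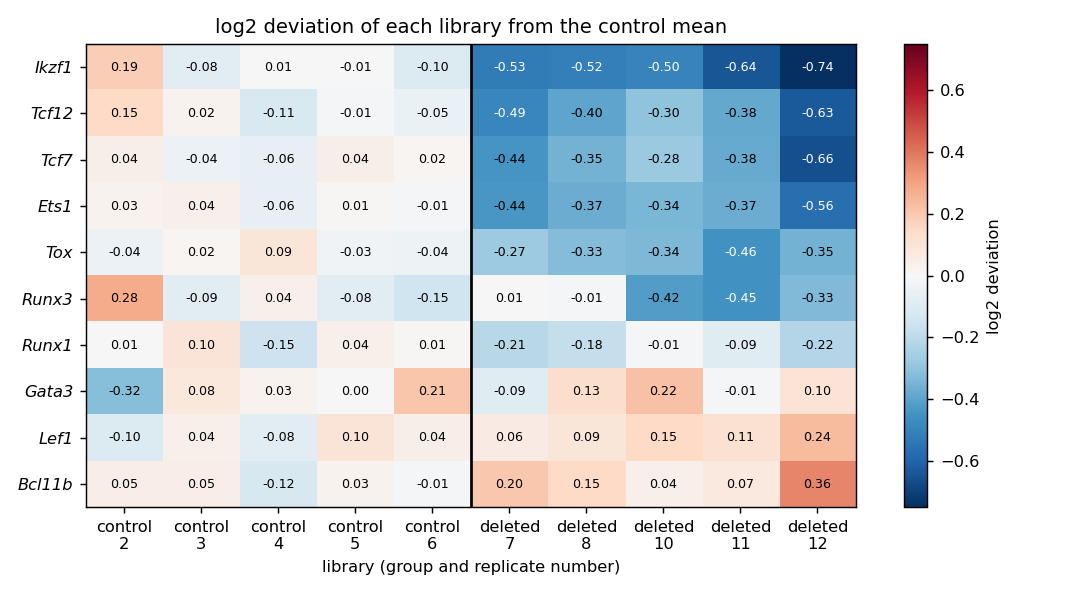
Log2 deviation of each T lineage factor (rows) in each spleen (columns, controls left of the black line, labelled Sirt1-deleted right of it) from the mean of the controls, with blue for lower and red for higher. The upper 5 rows are blue in all 5 labelled Sirt1-deleted columns, deepest for Ikzf1 in replicate 12 at -0.74, while the Lef1 and Bcl11b rows are red there.

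Ratios of transcripts within a spleen do not depend on how the libraries were scaled to each other, and 6 were compared. The exact permutation test was two-sided and used all 252 ways to divide the spleens into groups of 5, so its smallest p is 0.00794. The ratio of Tcf7 to Lef1 was 2.67, 2.79, 2.82, 2.70 and 2.03 in the labelled Sirt1-deleted spleens and 4.19, 3.57, 3.84, 3.64 and 3.72 in controls. Every labelled Sirt1-deleted spleen thus had less Tcf7 for each unit of Lef1 than any control, and the log2 ratios were 1.37 ± 0.196 and 1.92 ± 0.0905 (SD, n = 5; exact permutation p = 0.00794, adjusted over the 6 ratios 0.0119). The ratio of Tcf12 to its partner Tcf3 was 0.69 ± 0.0954 against 0.99 ± 0.0827 on the log2 scale, and the ratio of Tcf12 to the inhibitor Id3 was 0.56 ± 0.231 against 1.17 ± 0.299 (SD, n = 5). Neither overlapped between the groups (exact permutation p = 0.00794 for each, adjusted 0.0119). The log2 ratio of Ets1 to its relative Fli1 was 4.07 ± 0.110 against 4.44 ± 0.0351 (SD, n = 5), again with no overlap (exact permutation p = 0.00794, adjusted 0.0119). Tcf7, Tcf12 and Ets1 had already separated the groups, while Lef1, Id3 and Fli1 were not called and Tcf3 fell slightly. These ratios therefore largely restate the falls of Tcf7, Tcf12 and Ets1 and are not separate support for them. Ikzf1 moved the other way against its relative Ikzf3, with a log2 ratio of 2.28 ± 0.243 against 1.90 ± 0.0973 (SD, n = 5; exact permutation p = 0.0159, adjusted 0.0190), and Ikzf3 itself was lower by more. That ratio overlapped between the groups, and without control replicate 2, 5 or 6 its adjusted exact permutation p was 0.0667, 0.0571 and 0.0571. The log2 ratio of Runx1 to Runx3 was 2.51 ± 0.286 against 2.41 ± 0.215 (SD, n = 5; exact permutation p = 0.571).

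**Figure D4:**
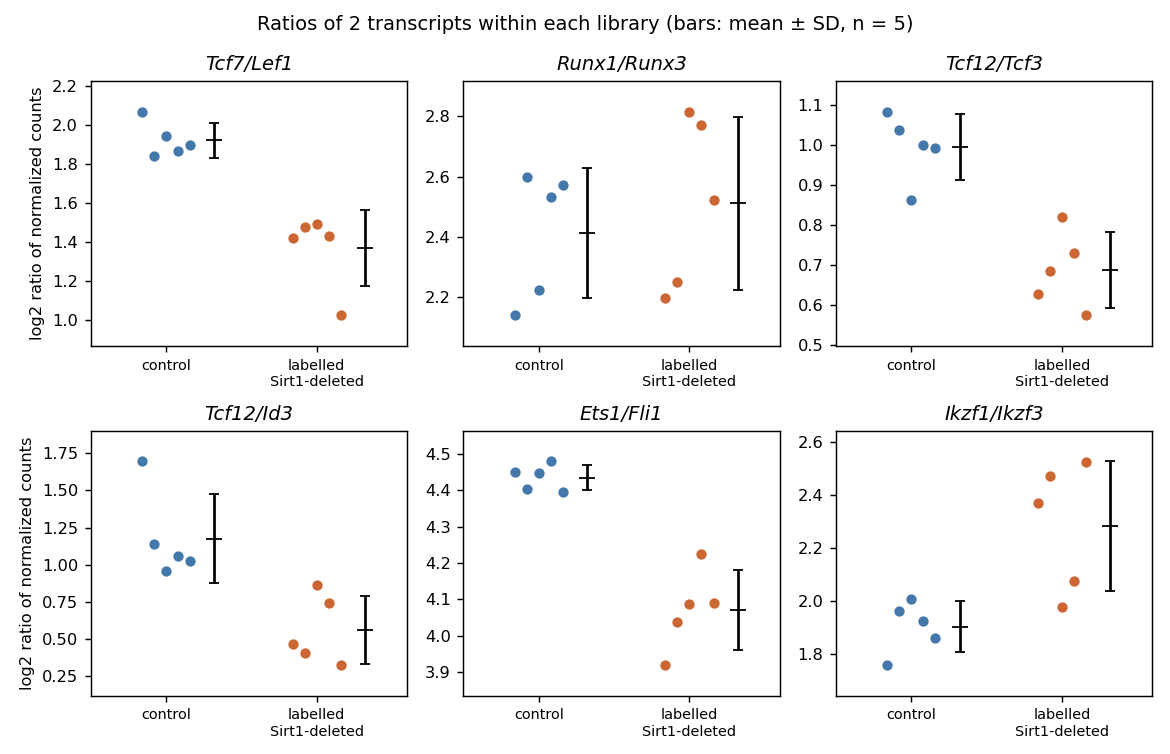
Log2 ratio of normalized counts of 2 transcripts within each control (blue) and labelled Sirt1-deleted (orange) spleen, with the mean ± SD of 5 spleens as black bars; the axes do not start at 0. The groups separate for Tcf7/Lef1, Tcf12/Tcf3, Tcf12/Id3 and Ets1/Fli1, and overlap for Runx1/Runx3 and Ikzf1/Ikzf3.

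Levels were compared between the factors as normalized counts per kilobase of the longest annotated transcript (GENCODE M21). In controls the order from high to low was Tcf7 (31543 per kilobase), Ikzf1 (9182), Ets1 (6729), Lef1 (5635), Tcf12 (2478), Gata3 (1731), Bcl11b (912), Runx1 (906), Tox (675) and Runx3 (257). Of the neighbours in that order only Bcl11b and Runx1 overlapped. In the labelled Sirt1-deleted spleens Tcf7 was again first (23645 per kilobase), but Lef1 (6167) and Ikzf1 (6114) followed with overlapping values, then Ets1 (5039), and Tcf12 (1829) and Gata3 (1809) overlapped as well. Bcl11b (1024), Runx1 (820), Tox (530) and Runx3 (219) kept the last places. The order depended on the length used: with the mean length of the protein-coding transcripts, 5 of the 10 factors held the same place in both groups as with the longest transcript, and Lef1 was then below both Ikzf1 and Ets1 in both groups.

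The families and partners of these factors were described from a list of 31 genes, of which 30 passed the filter on low values (not Tox3). Of these, 5 rose, 11 fell and 14 were not called, which is 53.3% called, beside 36.1% of all genes, with a median log2 difference of -0.06. Ikzf3, which encodes the Ikaros relative Aiolos, fell most, from 12720 ± 1812 to 6578 ± 1342 normalized counts (SD, n = 5; log2 difference -0.96, limma adjusted p = 0.000481). Ikzf5 fell as well, while Ikzf2 (Helios, log2 difference -0.11, limma adjusted p = 0.324) and Ikzf4 were not called. Zfpm1, which encodes the GATA cofactor FOG-1, fell from 4645 ± 480 to 3342 ± 414 (log2 difference -0.48, limma adjusted p = 0.00234). Of the ETS family, Gabpa (-0.41, limma adjusted p = 0.00502), Elf4 (-0.39), Elf1 (-0.29) and Ets2 (-0.25) fell together with Ets1. The ETS gene Erg, known from stem cells and endothelium, rose from 13.3 ± 2.64 to 40.6 ± 15.7 normalized counts (1.46, limma adjusted p = 0.00330), both low levels, and Fli1 was not called (-0.06). Among the HMG-box partners, Tcf7l2 rose from 47.3 ± 17.1 to 91.9 ± 23.0 (0.97, limma adjusted p = 0.00918), Ctnnb1, which encodes beta-catenin, rose (0.26), Tox2 rose (0.36), and the corepressor Tle1 (-0.27) and Tox4 (-0.15) fell. Tcf7l2 and Tox2 overlapped between the groups. Of the E protein group, Tcf3 fell slightly (-0.13, limma adjusted p = 0.0227), Id2, which encodes an inhibitor of E proteins, rose from 626 ± 66.6 to 870 ± 93.7 (0.48, limma adjusted p = 0.00286), and Id3 was not called (0.18, limma adjusted p = 0.173). Cbfb, the RUNX partner, fell slightly (-0.13). Under each of the 3 rescalings Tcf3, Cbfb and Tox4 were no longer called, and no called gene of the list changed sign.

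Of 15 other regulators of thymocyte development 7 fell and 0 rose, which is 46.7% called, beside 36.1% of all genes in either direction and 19.4% as lower. Their median log2 difference was -0.13. Limma and the exact rank-sum test both called 0 of them as higher, and 1 was higher at an unadjusted limma p under 0.05. Under each of the 3 rescalings 1 was called as higher, and with sample weights or without labelled Sirt1-deleted replicate 10, 2 were. The largest falls were in Bach2, which restrains effector differentiation (277 ± 93.5 to 146 ± 52.4 normalized counts, log2 difference -0.92, limma adjusted p = 0.0129), Egr2, an early response gene of receptor signalling (38.5 ± 6.25 to 22.1 ± 3.54, -0.77, limma adjusted p = 0.0125), and Nfatc3, a calcineurin-dependent factor (7624 ± 582 to 5622 ± 717, -0.45, limma adjusted p = 0.00237). Satb1 (-0.35), Myb (-0.22), Gfi1 (-0.21) and Patz1 (-0.11) also fell, although Gfi1 and Patz1 were not called under any of the 3 rescalings. Of these 7 genes, Bach2 and Patz1 overlapped between the groups. Without labelled Sirt1-deleted replicates 10 and 11, 12 of the 15 were called, 5 of them as higher. At that setting the count over all genes was also higher, at 6937 of 15217. Of 9 factors of activated and effector T cells 3 fell and 0 rose, also at an unadjusted limma p under 0.05 (median log2 difference -0.16). The exact rank-sum test called 2 as lower and 0 as higher. The limma count is 33.3% called, not above the 36.1% of all genes. With sample weights or without labelled Sirt1-deleted replicate 10, 1 was called as higher. The 3 that fell were Nr4a3 (65.4 ± 15.3 to 37.4 ± 12.5, -0.83, limma adjusted p = 0.0236, groups overlapping), Nr4a1 (2560 ± 331 to 1574 ± 140, -0.70, limma adjusted p = 0.000387) and Irf4 (1517 ± 178 to 1019 ± 194, -0.59, limma adjusted p = 0.00399). These 3 genes are known to be induced by T cell receptor signals. Of the same list, Nr4a2 (-0.006, limma adjusted p = 0.984) and Batf (0.28, limma adjusted p = 0.116) were not called.

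Factors of progenitors and of other blood lineages were also read, some of which are oncogenes in T-ALL. Of 14 listed, 12 were in the table and 10 passed the filter, of which 4 rose and 0 fell (median log2 difference 0.12). That is 40% called, near the 36.1% of all genes in either direction, while 16.8% of all genes were called as higher. An unadjusted limma p under 0.05 and the exact rank-sum test also gave 0 lower. Spi1, which encodes the myeloid factor PU.1, rose from 143 ± 16.3 to 381 ± 147 normalized counts (1.33, limma adjusted p = 0.00145). Cebpa, a factor of granulocyte precursors, rose from 26.3 ± 10.4 to 59.3 ± 17.2 (1.18, limma adjusted p = 0.00674, groups overlapping), and Hhex rose (0.88). Lmo1 rose from 4.62 ± 2.08 to 19.9 ± 12.8 (1.76, limma adjusted p = 0.00804), levels at which the pseudocount of 1 shrinks the difference. Its control mean lay below the minimum mean of 10, so Lmo1 passed the filter only through its level in the labelled Sirt1-deleted spleens. When labelled Sirt1-deleted replicate 8 was omitted, 9 genes of this list were tested and 3 were called, all as higher. Spi1 and Cebpa are expressed by neutrophils and macrophages, whose marker sums were higher in the same 5 spleens, and the part of those cells in these rises was not tested. With a minimum mean of 50, 1 of 5 tested genes of this list was called. Without labelled Sirt1-deleted replicates 10 and 11, 4 were called as higher and 1 as lower.

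**Figure D5:**
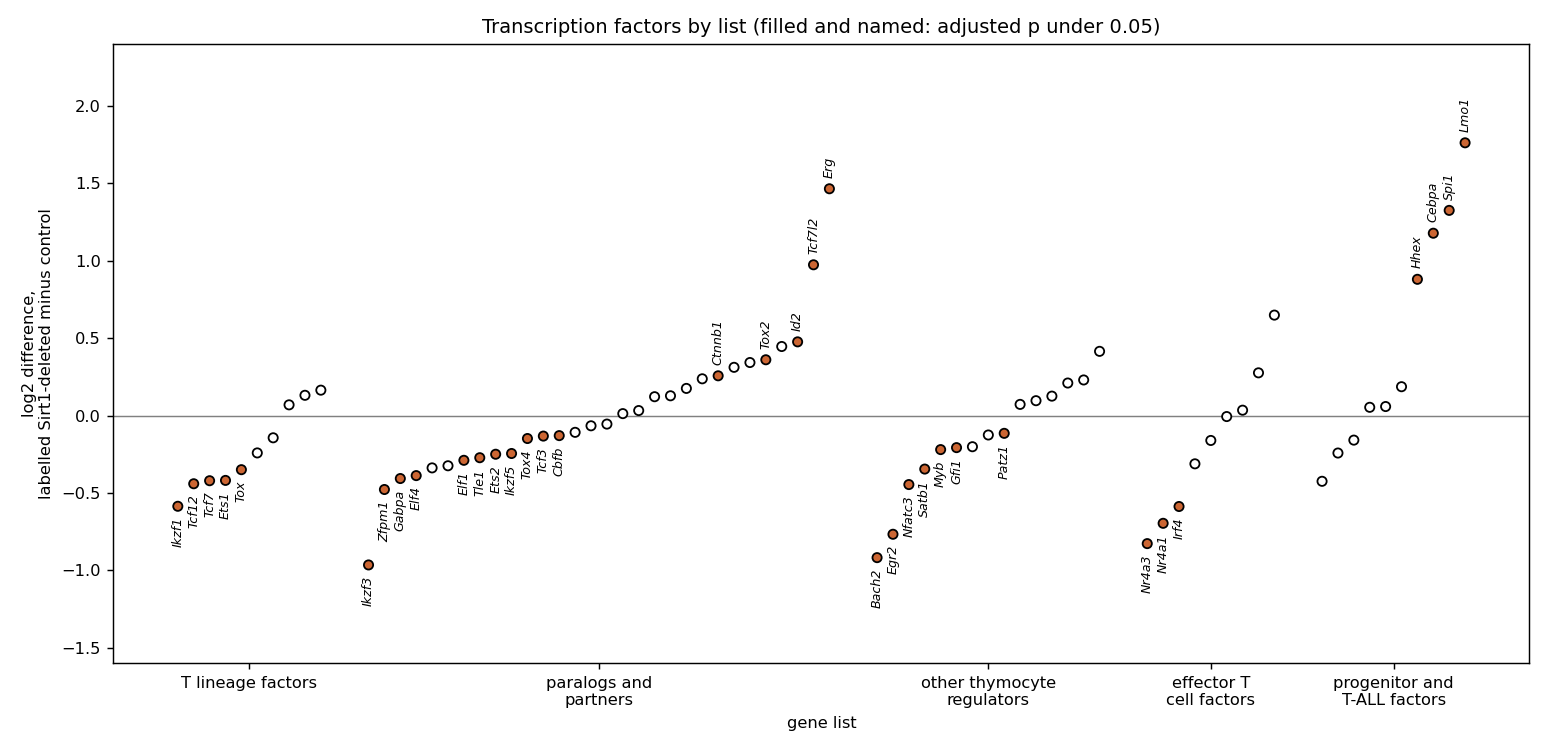
Log2 difference (vertical axis, labelled Sirt1-deleted minus control) of each tested gene in 5 lists of transcription factors (horizontal axis, genes sorted within a list), filled and named where the limma adjusted p is under 0.05. The 10 T lineage factors, the other thymocyte regulators and the effector factors have called genes below 0 and none above, the progenitor and T-ALL list has them above 0 and none below, and the paralogs and partners have both.

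For each factor that fell, the 2 genes with the most similar profile over the 10 spleens were found among 10751 genes with a mean of at least 100, by the root mean square difference of centred log2 values. For Ikzf1 these were Pik3cg, a lipid kinase of blood cells (0.0229 log2 units), and Mbnl2, a splicing regulator (0.0490). For Tcf7 they were Ppp6r1 (0.0267) and Serinc1 (0.0305), and for Tcf12 they were Kat6a, a histone acetyltransferase (0.0262), and Traf3, a signalling adaptor (0.0329). For Ets1 they were Rap1gds1 (0.0349) and St8sia4 (0.0413), and for Tox they were Zfp606 (0.0518) and Ajuba (0.0552). These profiles include the difference between the groups, and all 10 genes were called as lower in the labelled Sirt1-deleted spleens, with log2 differences from -0.60 to -0.28.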

How the data were processed

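Values of 20813 genes in 10 leukemic spleens were analysed. Per the submitters' processing notes the authors used kallisto 0.44.0, DESeq and build mm10, with roles not given. The deposited values are a signal, counts per gene normalized by the authors. They were not whole reads: in each sample 68.0% to 74.0% of low values lay within 0.1 reads of a whole number, so tests of read counts were not run. Strand-specific libraries were made, per the labels' protocols, and whether counting used strand or merged transcripts is not given in the sources used here. All columns matched a sample, and 0 others were present. Groups follow the labels.

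For 15276 genes with a mean of at least 10, log2(value + 1) was compared with limma 3.58.1 in R 4.3.3 (empirical Bayes with intensity trend, Benjamini-Hochberg adjustment, threshold 0.05), after a check on simulated data. This scale understates differences of low genes. Named are all 10 factors, at most 3 called genes per direction and list with the largest difference (others only in passing), 6 ratios, the 2 nearest profiles of each called factor, and Sirt1. The factors and lists were chosen with earlier results of these data known. Alternatives covered pseudocounts, filters, scalings, tests and omitted spleens. Coordinates and transcript lengths came from GENCODE M21 on GRCm38, and promoters from RefSeq on GRCm38.p6. All 10 symbols matched GENCODE.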

Additional observations from a re-analysis of the deposited data

Results flagged for a closer look

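Among 34 sets of 5 spleens (each of the 10 factors, 6 ratios and Sirt1 in each group), 2 held a spleen far from the other 4. That is near the rate of about 1 in 20 that chance gives. The ratios reuse the factors, so the sets are not independent. The log2 ratio of Tcf7 to Lef1 in labelled Sirt1-deleted replicate 12 was 1.02, against 1.42 to 1.49 in the other 4, a gap of 0.842 of the range of the group. The log2 ratio of Tcf12 to Id3 in control replicate 2 was 1.70, against 0.96 to 1.14 in the other 4, a gap of 0.752 of the range.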

How the results depend on the processing

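The count of called factors was 5 to 7 over all alternatives. Over all genes the count was 5518, and the exact rank-sum test called 3659 (1691 higher, 1968 lower). Without labelled Sirt1-deleted replicates 10 and 11, 12 of the other thymocyte regulators were called in place of 7. With a minimum mean of 50, 1 progenitor factor was called in place of 4. Only 5 were then tested in place of 10, and the filter had removed Cebpa, Hhex and Lmo1. With mean protein-coding transcript lengths 5 of 10 factors held their place in the order of levels. Gata3 reversed to -0.0099 without control replicate 2 (omitting each spleen in turn gave -0.0099 to 0.12), and the log2 ratio of Runx1 to Runx3 reversed to -0.091 without replicates 10 and 11; the cause was not tested. The difference in the log2 ratio of Ikzf1 to Ikzf3 was 0.32 to 0.46 when each spleen was omitted, past the threshold in 7 of 10. No paired analysis was possible because no replicate number occurs in both groups. Fits with edgeR and DESeq2 had been planned for whole reads and were not run, as the values do not give them. No counting intervals were derived, because depth is only approximate.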

Other observations

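The 12 T cell markers did not move as one group, since 3 rose and 4 fell. The largest differences were in genes outside the T cell receptor complex. Cd5, an inhibitory surface receptor whose level follows receptor signal strength, fell from 5625 ± 330 to 3685 ± 298 normalized counts (SD, n = 5; log2 difference -0.61, limma adjusted p = 0.000104), Cd28, the costimulatory receptor, from 8077 ± 505 to 5605 ± 185 (-0.53, limma adjusted p = 7.84e-05) and Themis, a thymocyte signalling adaptor, from 8141 ± 361 to 5801 ± 288 (-0.49, limma adjusted p = 0.000101). Cd247, the receptor's zeta chain, also fell (-0.20). Thy1, the abundant surface protein of mouse T cells, rose from 53217 ± 3677 to 79592 ± 17084 (0.56, limma adjusted p = 0.00510), the adaptor Lat rose from 18058 ± 1447 to 22987 ± 2282 (0.35, limma adjusted p = 0.00472), and Cd3d rose slightly (0.17, limma adjusted p = 0.0170). Cd3e (-0.04, limma adjusted p = 0.743), Cd3g (0.11, limma adjusted p = 0.238) and Zap70 (-0.02, limma adjusted p = 0.813) were not called.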
